A study of Mus musculus with 24 samples.

Results

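The genes described here encode oxidative phosphorylation, the machinery by which mitochondria pass electrons from nutrients to oxygen and use the energy to make ATP. Members were taken by symbol. They are genes whose names start with Nduf, Uqcr, Cox4 to Cox8 or Atp5, the genes Sdha, Sdhb, Sdhc, Sdhd and Cycs, and genes of the mitochondrial chromosome named mt-Nd, mt-Co, mt-Cytb or mt-Atp. Pseudogenes marked -ps were left out, which removed 7 names. Genes averaging under 1 CPM (a gene's counts scaled to a library total of 1000000) over the 24 libraries were also left out, which removed 13. That gave 98 members among 47643 genes in the table, 87 encoded in the nucleus and 11 in the mitochondrion. Just inside the limit were mt-Nd3 at 1.29, mt-Co3 at 1.35 and mt-Co2 at 1.43 CPM, and just outside it were mt-Nd4l at 0.745, Cox6b2 at 0.590, Cox4i2 at 0.498 and mt-Atp8 at 0.456 CPM.

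RNA was sequenced from mouse macrophages of 2 sources, either grown out of induced pluripotent stem cells (iPSCs) or of bone marrow (BM), called iPSC-derived and BM-derived here. Each source was sampled without co-culture at day 0 and in co-culture at days 3, 6 and 12, with 3 independent replicates in each of the 8 groups. Day 0 cells of the same batch were the study's controls, so a difference from day 0 covers both time and co-culture. The labels give the mouse as the organism but do not name the partner cells, the strain, the iPSC line or the age and sex of the marrow donors.

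Complex I (the Nduf and mt-Nd genes) takes electrons from NADH, and complex II (Sdha to Sdhd) takes them from succinate. Complex III (the Uqcr genes and mt-Cytb) hands them to cytochrome c (Cycs), and complex IV (the Cox genes) passes them to oxygen. Complex V (the Atp5 genes) uses the resulting proton gradient to make ATP. The mitochondrial chromosome encodes a few core subunits, transcribed from long shared precursors, while the other subunits are made in the cytosol and imported, so the complexes need products of both genomes. In macrophages the balance between respiration and glycolysis is known to shift with activation state.

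Library totals ran from 5839316 to 11805478 counts, and no pair of replicates held the same counts. The 9 macrophage marker genes (among them Csf1r, Adgre1 and Cd68) summed to 7028 to 9731 CPM in iPSC-derived day 0 libraries and 10143 to 29766 CPM in iPSC-derived co-culture libraries. In BM-derived libraries they summed to 28509 to 42056 CPM, and none of the 9 was at 0 in any group. Of the 8 neuron markers 5 to 8 were called higher than at day 0 in each co-culture group (edgeR, as defined below), while markers of astrocytes and oligodendrocytes were also present at day 0. The neuron markers summed to at most 3.06 CPM at day 0 and at most 61.9 CPM in co-culture. The 6 astrocyte markers reached 49.7 CPM at day 0 and 90.9 CPM in co-culture, and the 6 oligodendrocyte markers 126 and 275 CPM. At days 3, 6 and 12, 2, 4 and 5 astrocyte markers were called higher in iPSC-derived cells (1, 0 and 1 lower) and 4, 5 and 5 in BM-derived cells. Of 5 oligodendrocyte markers tested, 2, 4 and 3 were called higher in iPSC-derived cells (0, 0 and 1 lower) and 1, 1 and 1 in BM-derived cells. Of all genes tested, 11.2% to 14.7% were called higher in these comparisons with day 0. Of the 7 fibroblast markers, 3, 7 and 6 were called higher in iPSC-derived cells at days 3, 6 and 12 and 0 (3 at an unadjusted p under 0.05), 4 and 6 in BM-derived cells. They reached 31.4 CPM at day 0, and their 21.02 to 86.0 CPM in iPSC-derived day 3 libraries overlapped the day 0 sums. They summed to 394 to 808 CPM in iPSC-derived day 6 libraries and 250 to 481 CPM in iPSC-derived day 12 libraries, against 119 to 220 CPM in BM-derived day 12 libraries. At day 0, Dcx and Nefl (neuron) and Olig2 and Sox10 (oligodendrocyte) were at 0 in iPSC-derived libraries. Nefl, Rbfox3 and Syt1 (neuron) and Cspg4 and Sox10 were at 0 in BM-derived ones. Aqp4 (astrocyte) was at 0 in iPSC-derived day 3 libraries, and Mog (oligodendrocyte) in those and in BM-derived day 6 and day 12 libraries. The part of these cells' RNA in the differences from day 0 below was not tested. In bulk RNA, fewer cells of a type and less RNA per cell cannot be told apart.

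For 4 of the 11 mitochondrial members the table holds few reads. Subunit genes mt-Co2 and mt-Co3 of complex IV, mt-Atp6 of complex V and mt-Nd3 of complex I averaged 1.29 to 3.79 CPM. Their neighbours on the same chromosome, mt-Co1 and mt-Nd1, averaged 13954 and 4606 CPM. Annotated copies of these 4 genes lie together on nuclear chromosome 1 and match the mitochondrial sequence almost base for base. Of all 51-base stretches (the read length), 100% in mt-Co2, 99.9% in mt-Co3, 99.5% in mt-Atp6 and 98% in mt-Nd3 also occur in another annotated gene, and the file header gives no option that counts reads mapping to several places. The starts of mt-Co3 and mt-Nd3 and of their chromosome 1 copies are printed to show this (GRCm38, 5′ to 3′ in the sense of the gene). Capitals mark the 1 base that differs in the second pair, and the first pair has 0 mismatches.
mt-Co3, chrM:8607-8666, plus strand: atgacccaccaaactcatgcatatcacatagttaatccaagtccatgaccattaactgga
Gm28437, chr1:24613912-24613971, minus strand: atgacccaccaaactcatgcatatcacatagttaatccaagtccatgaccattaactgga
mt-Nd3, chrM:9459-9518, plus strand: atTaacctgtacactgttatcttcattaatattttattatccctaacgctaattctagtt
Gm28438, chr1:24613060-24613119, minus strand: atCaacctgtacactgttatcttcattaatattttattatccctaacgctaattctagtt
The levels of these 4 genes are therefore uncertain and none of their differences was called in any comparison. Over 24 libraries, the mt-Co3 copy Gm28437 held 358 counts and mt-Co3 itself 291. Part of mt-Nd4 (62.2% of its 51-base stretches) and of mt-Co1 (50.6%) is shared in the same way, whereas the shares were 8.0% in mt-Nd2, 7.22% in mt-Nd5 and 0 in mt-Nd1, mt-Cytb and mt-Nd6. Counting used no strand setting. Reads of mt-Nd6, which is encoded on the opposite strand to the other mitochondrial members, therefore cannot be told apart from RNA of the opposite strand at that place.

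Before any comparison, a pair of libraries stood apart. Nuclear members with under 800 bases of exon (20 genes, mostly small accessory subunits) were compared with their own mean over all libraries on a log2 scale. Their median deviation was 1.16 in the third iPSC-derived day 3 library and 2.05 in the third iPSC-derived day 6 library, and between -0.80 and 0.60 in the other 22. Those 2 libraries were also high in 70 cytosolic ribosomal protein genes, at 1.22 and 1.97 against -0.84 to 0.50 elsewhere. In 123 other genes under 800 bases they stood at 0.83 and 1.19 against -0.61 to 0.36, while 5200 genes over 4000 bases stood at -0.02 and -0.07. Below, counts of members and the log2 fold changes named at days 3 and 6 in iPSC-derived cells are given with those 2 libraries and without them. The second setting was chosen after seeing the data and leaves 2 libraries in each of those groups. The choice used the high values of the short nuclear members themselves. Lower values of those members without the 2 libraries therefore follow in part from the choice and are no separate support. Short nuclear members also differed between BM-derived groups, with deviations of -0.42, -0.15 and -0.56 at day 3, -0.62, -0.56 and -0.80 at day 6, and 0.58, 0.07 and 0.60 at day 12. Bases of exon cover all annotated exons of a gene and can exceed the length of its transcripts. The part of transcript length in the results was not tested beyond the values given here.

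Levels between genes were compared per kilobase of exon, so their order depends on that length too. Mitochondrial members ranged from 1.72 to 9032 CPM per kb (median 320.7) and nuclear members from 1.49 to 190.7 CPM per kb (median 22.9). The order was led by mt-Co1 at 9032, mt-Nd1 at 4813 and mt-Cytb at 3729 CPM per kb, followed by mt-Nd5 at 1318, mt-Nd4 at 776, mt-Nd6 at 321 and mt-Nd2 at 271. The most abundant nuclear members per kb were the complex V subunits Atp5b at 190.7 and Atp5a1 at 183, which form the catalytic head of ATP synthase, and then Cox4i1 at 156 and Cox7a2l at 152. Succinate dehydrogenase subunits Sdhd at 141 and Sdha at 102 CPM per kb followed.

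Summed over members, the mitochondrial share of all counts was 2.25% ± 0.18 (SD, n = 3) in iPSC-derived cells at day 0, 2.11% ± 0.64 at day 3, 3.23% ± 0.81 at day 6 and 3.10% ± 0.28 at day 12. In BM-derived cells the mitochondrial share was 2.88% ± 0.14 at day 0, 1.99% ± 0.48 at day 3, 2.53% ± 0.23 at day 6 and 3.32% ± 0.54 at day 12. Nuclear members held 0.828% ± 0.019 of counts in iPSC-derived cells at day 0, then 0.611% ± 0.119, 0.678% ± 0.273 and 0.585% ± 0.075 at days 3, 6 and 12. The same sum in BM-derived cells was 0.530% ± 0.014, 0.522% ± 0.018, 0.497% ± 0.015 and 0.637% ± 0.038 at days 0, 3, 6 and 12. Without the libraries that stood apart, the other 2 iPSC-derived day 3 libraries held 1.69% and 1.78% of counts in mitochondrial and 0.547% and 0.537% in nuclear members, and the other 2 day 6 libraries 4.16% and 2.76% in mitochondrial and 0.550% and 0.493% in nuclear members. The log2 ratio of the mitochondrial to the nuclear sum was on average lowest in iPSC-derived day 0 cells, at 1.31, 1.48 and 1.52 in its libraries. In BM-derived day 0 cells it was 2.44, 2.48 and 2.41, so these groups did not overlap. By day 12 the ratio was 2.50, 2.41 and 2.31 in iPSC-derived cells and 2.17, 2.62 and 2.32 in BM-derived cells, which overlapped. The third iPSC-derived day 6 library had a ratio of 1.49, whereas the other iPSC-derived day 6 libraries had 2.92 and 2.49. These sums are a description and carry no test.

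**Figure D1:**
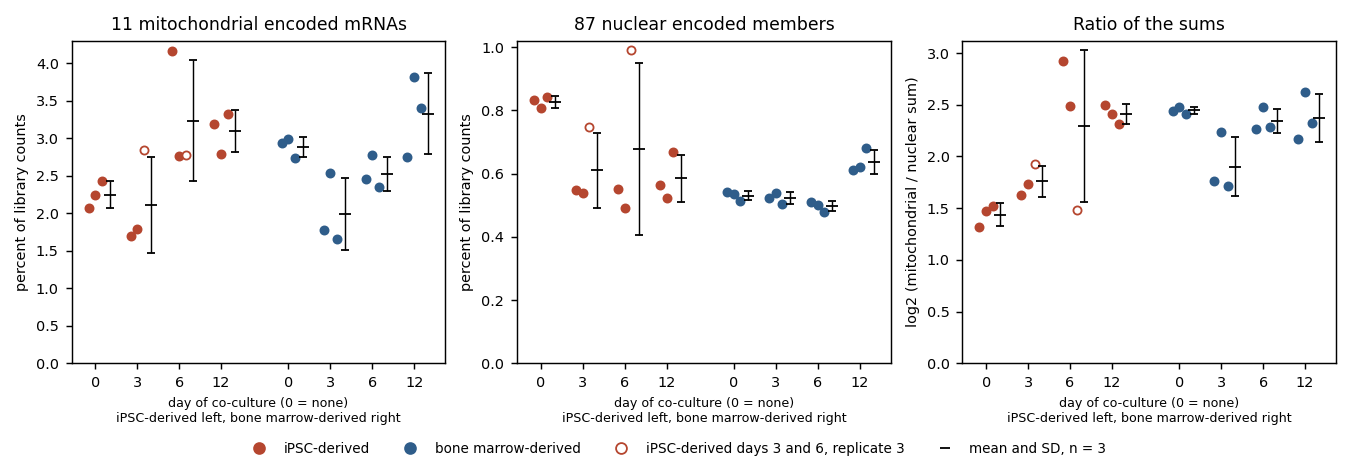
Percent of each library's counts in mitochondrial encoded and in nuclear encoded members, and the log2 ratio of the sums, by group (points are libraries, open circles the libraries that stood apart, bars the mean and SD, n = 3). The mean ratio is lowest in iPSC-derived day 0 cells, whose libraries lie at 1.31 to 1.52, and the third iPSC-derived day 6 library, at 1.49, lies within that range.

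The first comparison asked how the sources differed before co-culture. At day 0, iPSC-derived cells held more RNA of 17 of the 87 nuclear members than BM-derived cells and less of none, and less RNA of 4 of the 11 mitochondrial members and more of none. Differences are log2 fold changes ± SE from the edgeR quasi-likelihood test, and "rose", "fell" or "called" means a Benjamini-Hochberg adjusted p below 0.05 over the 15000 genes tested. Of all genes tested, 36.0% were called between the sources at day 0, 18.9% higher and 17.1% lower in iPSC-derived cells. The nuclear count, 17 of 87, is near that background for higher genes. The median log2 fold change was 0.37 over nuclear members and -1.0 over mitochondrial members. The 17 comprised 7 subunits of complex I, 2 of its assembly factors, 3 subunits of complex III, 2 of complex V, 1 each of complexes II and IV, and Cycs. With the fit made without the 2 libraries that stood apart, which belong to neither group but enter the shared spread, 28 nuclear members were called higher and 5 mitochondrial members lower. Of all genes 36.6% were called in that fit (19.8% higher, 16.8% lower), so as a part of the 87 the nuclear count is above the share of higher genes. Leaving out the second BM-derived day 0 library gave 11 nuclear calls, and DESeq2 called 16 nuclear members higher and 1 lower.

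The complex V gene Atp5b (chr10:128083273-128090391) encodes the catalytic beta subunit. It stood at 1466, 1357 and 1598 CPM in the iPSC-derived libraries, against 503, 527 and 550 CPM in the BM-derived libraries. The groups did not overlap, and the log2 fold change was 1.41 ± 0.11 (edgeR adjusted p = 4.0e-10). Its partner in the catalytic head, Atp5a1, had 817, 746 and 814 CPM in iPSC-derived cells, against 498, 496 and 492 CPM in BM-derived cells, a log2 fold change of 0.60 ± 0.10 (edgeR adjusted p = 3.1e-05).

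In complex I, the subunit Ndufa9 (chr6:126821721-126849136) joins the membrane and matrix arms. Ndufa9 had 168, 182 and 192 CPM in iPSC-derived cells, against 69.7, 46.6 and 70.2 CPM in BM-derived cells, and was higher by 1.46 ± 0.19 (edgeR adjusted p = 1.7e-06). Ndufa10, another accessory subunit, had 188, 191 and 168 CPM against 92.0, 103 and 96.6 CPM in BM-derived cells (0.83 ± 0.15, edgeR adjusted p = 0.00013). The core subunits of the electron-entry arm were called with smaller values. Ndufs1 differed by 0.85 ± 0.19 and Ndufv1, which binds NADH, by 0.60 ± 0.16.

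In complex III, both core proteins were higher in iPSC-derived cells. Uqcrc1 (chr9:108936633-108949623) had 407, 432 and 380 CPM in iPSC-derived cells, against 211, 196 and 228 CPM in BM-derived cells (0.86 ± 0.12, edgeR adjusted p = 4.9e-06). Uqcrc2 had 203, 176 and 152 CPM against 77.6, 87.2 and 90.6 CPM in BM-derived cells (0.98 ± 0.15, edgeR adjusted p = 9.1e-06). The Rieske iron-sulfur protein Uqcrfs1 differed by 0.57 ± 0.18, a call that ended without the first iPSC-derived library (0.51) or the third BM-derived library (0.48). The electron carrier Cycs was low but separate, at 21.2, 21.7 and 20.6 CPM in iPSC-derived cells and 5.98, 6.88 and 7.51 CPM in BM-derived cells (1.56 ± 0.35, edgeR adjusted p = 0.0011). Of its 51-base stretches, 26% occur in other annotated genes, so part of its reads may not be counted.

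Of complex IV, 1 nuclear member was called. Cox6a2, the isoform known from heart and skeletal muscle, had 14.8, 12.2 and 2.91 CPM in iPSC-derived cells, against 0.249, 0.344 and 0.751 CPM in BM-derived cells (4.35 ± 0.83, edgeR adjusted p = 0.00019). Its widely expressed counterpart Cox6a1 had 56.7, 71.5 and 44.0 CPM against 34.4, 36.6 and 31.4 CPM in BM-derived cells, a difference of 0.67 ± 0.56 that was not called. Of complex II, Sdhc was called at 0.48 ± 0.19. That call ended when any of 5 of the 6 libraries was left out, all but the first iPSC-derived library, at values of 0.37 to 0.55 over the 6, while Sdha (0.22 ± 0.14), the flavoprotein, was not called.

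The called mitochondrial members were lower in iPSC-derived cells at day 0. The complex I gene mt-Nd4 (chrM:10167-11544) had 500, 517 and 675 CPM in iPSC-derived cells, against 1222, 1232 and 1185 CPM in BM-derived cells (-1.18 ± 0.20, edgeR adjusted p = 4.4e-05). Its neighbour mt-Nd5 had 1058, 1234 and 1576 CPM against 2871, 3001 and 2735 CPM in BM-derived cells (-1.23 ± 0.22, edgeR adjusted p = 8.4e-05). No iPSC-derived library reached a BM-derived one in either gene. The complex III gene mt-Cytb had 2359, 2642 and 3192 CPM in iPSC-derived cells and 5211, 5316 and 5021 CPM in BM-derived cells (-1.0 ± 0.23, edgeR adjusted p = 0.0012). The value for mt-Nd6 was -1.52 ± 0.36 (edgeR adjusted p = 0.0026). Over the same chromosome the differences were unequal. The complex IV gene mt-Co1 had 13098, 13760 and 13529 CPM against 14447, 14868 and 12832 CPM in BM-derived cells, a difference of -0.14 ± 0.19 within the spread of the libraries (edgeR adjusted p = 0.61), and mt-Nd1 differed by -0.35 ± 0.27 (edgeR adjusted p = 0.34).

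Promoter sequences of Atp5b, Ndufa9 and Uqcrc1, the nuclear members of lowest adjusted p at day 0, and of Cox7a2l, which was not called at day 0, are printed because NRF1 and related factors are known regulators of respiratory genes. Each runs from 250 bases before to 50 bases after the annotated start, from RefSeq on GRCm38.p6, and 71 of the 87 nuclear members matched a promoter entry. Capitals mark matches to the NRF1 motif, CCGGAAG (ETS factors) or AAGATGGCG (YY1), searched on both strands; none of the matches printed overlaps another.
Atp5b, chr10:128083057-128083356, plus strand, 0 matches: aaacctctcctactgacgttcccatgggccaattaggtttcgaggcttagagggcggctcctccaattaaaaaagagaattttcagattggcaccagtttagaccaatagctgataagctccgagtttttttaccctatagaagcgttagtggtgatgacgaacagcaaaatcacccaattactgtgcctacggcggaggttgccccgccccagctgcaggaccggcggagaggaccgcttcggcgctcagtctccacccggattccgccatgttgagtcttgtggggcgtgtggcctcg
Ndufa9, chr6:126849095-126849394, minus strand, 1 YY1 match: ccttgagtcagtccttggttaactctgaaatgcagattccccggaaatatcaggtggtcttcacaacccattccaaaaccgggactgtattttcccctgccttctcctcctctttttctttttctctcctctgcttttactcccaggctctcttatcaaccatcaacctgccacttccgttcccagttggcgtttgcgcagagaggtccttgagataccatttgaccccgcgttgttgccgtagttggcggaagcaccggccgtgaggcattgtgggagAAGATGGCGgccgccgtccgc
Uqcrc1, chr9:108936398-108936697, plus strand, 2 NRF1 matches: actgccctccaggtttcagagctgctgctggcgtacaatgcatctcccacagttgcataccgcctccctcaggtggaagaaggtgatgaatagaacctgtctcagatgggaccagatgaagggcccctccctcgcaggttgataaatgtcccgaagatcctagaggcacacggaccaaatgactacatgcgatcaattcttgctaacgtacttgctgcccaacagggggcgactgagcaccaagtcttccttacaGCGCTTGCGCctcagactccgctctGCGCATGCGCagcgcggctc
Cox7a2l, chr17:83514284-83514583, minus strand, 0 matches: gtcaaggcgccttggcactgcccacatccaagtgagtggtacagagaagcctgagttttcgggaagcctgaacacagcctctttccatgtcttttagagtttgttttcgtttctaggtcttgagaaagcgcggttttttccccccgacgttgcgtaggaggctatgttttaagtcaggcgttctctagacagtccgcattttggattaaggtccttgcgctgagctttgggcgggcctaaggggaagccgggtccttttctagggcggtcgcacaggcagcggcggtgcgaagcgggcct
Among 76 promoters of the matched members, 26.3% held the NRF1 motif, against 4.60% of 32851 promoters in the RefSeq table. The ETS motif was in 23.7% of members' promoters against 8.86% of all, and the YY1 motif in 10.5% against 1.40%. At least 1 of the motifs was in 51.3% of members' promoters and 13.6% of all promoters. Cox7a2l, a supercomplex assembly factor, is shown because it fell in BM-derived cells at day 12, where Atp5b rose.

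The next comparisons asked what changed in co-culture. In iPSC-derived cells 5 nuclear members fell at day 3, 17 at day 6 and 8 at day 12 against day 0, and none rose. Over all genes tested, 19.4% were called at day 3 (8.14% lower), 25.4% at day 6 (11% lower) and 24.7% at day 12 (10.7% lower). As parts of the 87 nuclear members, the counts at days 3 and 12 are below the share of all genes that fell, and the day 6 count is above it. The median over nuclear members was -0.07 at day 3, 0.27 at day 6 and -0.35 at day 12, so at day 6 the median and the calls differ in sign. Fitted without the 2 libraries that stood apart, the day 3, day 6 and day 12 counts were 31, 32 and 13 lower and 0 higher, with 18.8%, 25.5% and 25.6% of all genes called (8.46%, 11.7% and 11.2% lower) and nuclear medians of -0.63 and -0.54 at days 3 and 6. All 5 of the day 3 calls and 16 of the 17 day 6 calls were made in that setting as well. The further day 3 calls include short members, by whose high values the 2 libraries were picked. The absence of higher calls at day 6 did not hold in 2 other settings: with no filter on low counts 17 were called higher and 12 lower, and DESeq2 called 3 higher and 13 lower. Leaving out the third day 0 library gave 11 at day 6, and leaving out the first day 3 library gave 3 at day 3. The third day 3 library decided part of that count too, which was 8 without it alone.

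**Figure D2:**
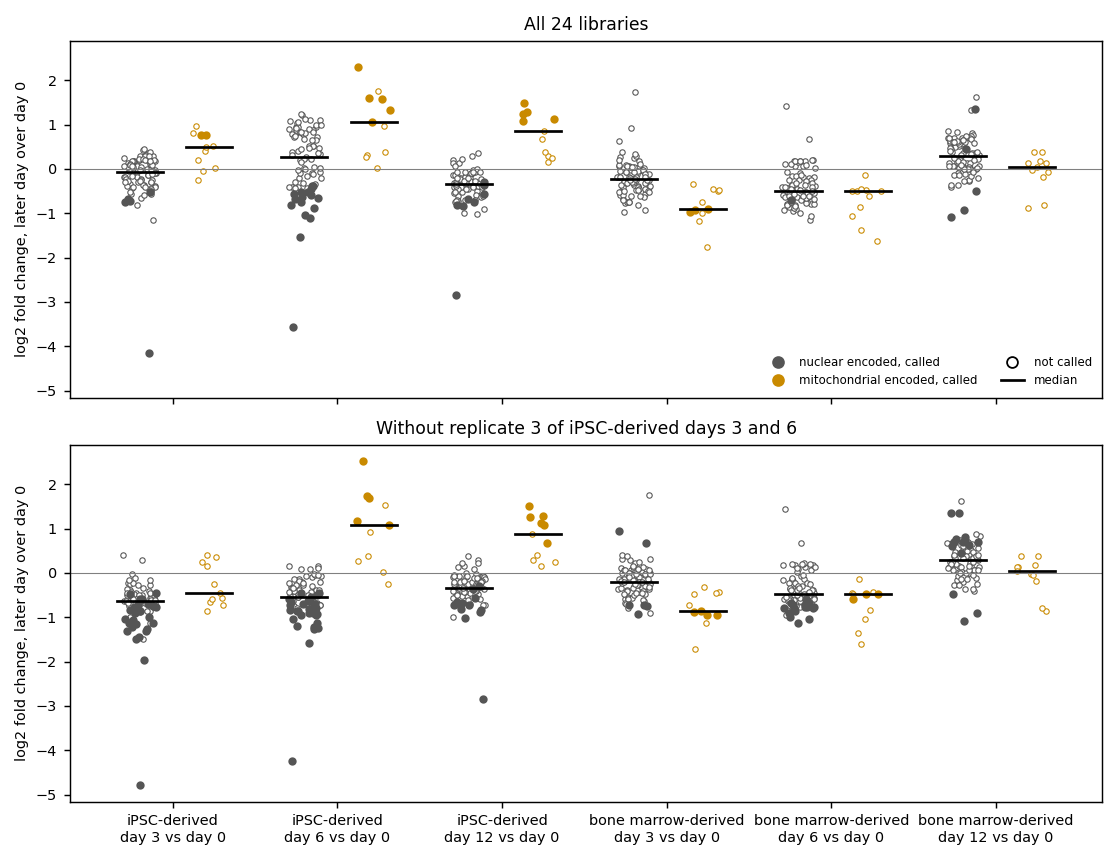
Log2 fold changes of nuclear and mitochondrial members at days 3, 6 and 12 over day 0 in iPSC-derived and BM-derived cells (points are genes, filled where called, bars medians), with all 24 libraries (top) and without the 2 that stood apart (bottom). In iPSC-derived cells the called nuclear members lie below 0 and the called mitochondrial members above 0 in both panels.

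Atp5b fell at each co-culture time in iPSC-derived cells. It had 793, 811 and 711 CPM at day 3, 722, 775 and 842 CPM at day 6 and 858, 734 and 960 CPM at day 12, all below the day 0 libraries given above. The log2 fold change was -0.74 ± 0.11 at day 3, -0.87 ± 0.11 at day 6 and -0.67 ± 0.11 at day 12 (edgeR adjusted p = 1.6e-05, 1.7e-06 and 4.7e-05), and without the 2 libraries that stood apart it was called at -0.70 and -0.95 at days 3 and 6. Atp5a1 fell by 0.39 on the log2 scale at day 6 (SE 0.10; -0.44 without the 2 libraries) and by 0.29 at day 12 (SE 0.10), where its call ended without the first or the third day 0 library or the first or second day 12 library, at values of -0.35 to -0.25.

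Members of complex III fell in the same comparisons. Uqcrc2 had 107, 120 and 98.3 CPM at day 3, 110, 88.4 and 109 CPM at day 6 and 91.3, 101 and 97.8 CPM at day 12, each below its day 0 libraries. Its log2 fold change was -0.51 ± 0.15 at day 3, -0.74 ± 0.15 at day 6 and -0.74 ± 0.15 at day 12. The day 3 call ended without the first day 0 library or the first or the third day 3 library, at values down to -0.41. Without both libraries that stood apart Uqcrc2 was called at -0.46 at day 3 and -0.81 at day 6. For Uqcrfs1 the changes were -0.72 ± 0.18, -1.03 ± 0.18 and -0.84 ± 0.18 at days 3, 6 and 12 (edgeR adjusted p = 0.0056, 0.00015 and 0.0012), with -0.72 and -1.20 at days 3 and 6 without the 2 libraries, both called. Uqcrc1 fell at day 6 (-0.53 ± 0.12, and -0.54 without the 2 libraries) and day 12 (-0.37 ± 0.12). Its day 12 call ended without the first or second day 0 library or the first or the third day 12 library, at values of -0.43 to -0.32.

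In complex I, Ndufa9 had 89.8, 98.4 and 108 CPM at day 3, 101, 52.0 and 88.6 CPM at day 6 and 92.3, 89.4 and 99.7 CPM at day 12. It fell by 0.68 on the log2 scale at day 3, 1.11 at day 6 and 0.82 at day 12 (SE 0.19 each). Its day 3 call ended without the first day 3 library (-0.60), and without the 2 libraries that stood apart it was called at -0.76 and -1.21 at days 3 and 6. Ndufa10 changed by -0.80 ± 0.15 (-0.91 without the 2 libraries) at day 6 and -0.58 ± 0.15 at day 12. A further 4 complex I genes were called at day 6: Ndufs1 (-0.59 ± 0.19), Ndufv1 (-0.44 ± 0.16) and the assembly factors Ndufaf6 (-1.53 ± 0.42) and Ndufaf1 (-0.68 ± 0.25). The call of Ndufs1 ended without the first or the third day 0 library or the first day 6 library (-0.71 to -0.39), and that of Ndufv1 without the first or second library of either day (-0.53 to -0.38). Without the 2 libraries that stood apart Ndufs1 (-0.66), Ndufv1 (-0.51) and Ndufaf6 (-1.57) were called at day 6, and Ndufaf1 (-0.75) was not.

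Of the 4 succinate dehydrogenase genes, 3 fell in iPSC-derived cells at day 6, at adjusted p-values between 0.041 and 0.049. The changes were -0.57 ± 0.21 for Sdhb, -0.52 ± 0.19 for Sdhc and -0.38 ± 0.14 for Sdhd (edgeR adjusted p = 0.049, 0.041 and 0.046), while Sdha was at -0.17 ± 0.14. The Sdhb call ended without any 1 of the day 0 libraries or of the first 2 day 6 libraries, and that of Sdhc without the second or the third day 0 library or the first or second day 6 library. For Sdhd it ended without the first or the third day 0 library or the second day 6 library. Values without 1 library ran from -0.78 to -0.28 for Sdhb, -0.70 to -0.29 for Sdhc and -0.50 to -0.22 for Sdhd. All 3 were also called at day 6 without the 2 libraries that stood apart, at -0.78, -0.70 and -0.45 in that order. Of complex IV, Cox6a2 fell to 0.185, 0.426 and 0.824 CPM at day 3 and 1.32, 1.02 and 1.41 CPM at day 12, against 14.8, 12.2 and 2.91 CPM at day 0 (-4.15 ± 0.82 and -2.85 ± 0.75). Its day 3 value was -4.80 without the 2 libraries, also called.

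The call of many members depended on the pair of libraries that stood apart. By bases of exon this was not confined to members under 800, since Cox4i1 has 1550, Uqcrq 1831, Ndufv2 1990 and Cycs 3404. Their transcripts may be shorter than these lengths. Cox4i1, the main form of the complex IV regulatory subunit, had 201, 156 and 495 CPM at day 3 and 214, 174 and 701 CPM at day 6, against 302, 326 and 286 CPM at day 0. The third library of each of these days was above all day 0 libraries and the others were below them. Its change was 0.09 ± 0.41 at day 3 with all libraries and -0.59 without the 2 that stood apart, where it was called. In the same setting, Ndufa2 (-1.49), Uqcrq (-1.98), Cox6a1 (-1.27) and Ndufb6 (-1.45) were called lower at day 3. At day 6 that setting called Cycs (-1.25), Ndufv2 (-0.92) and Cox5a (-0.90) lower. Ndufa2, Cox6a1, Ndufb6 and Cox5a are among the short members by which the 2 libraries were picked. Their falls without those libraries follow in part from that choice.

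**Figure D3:**
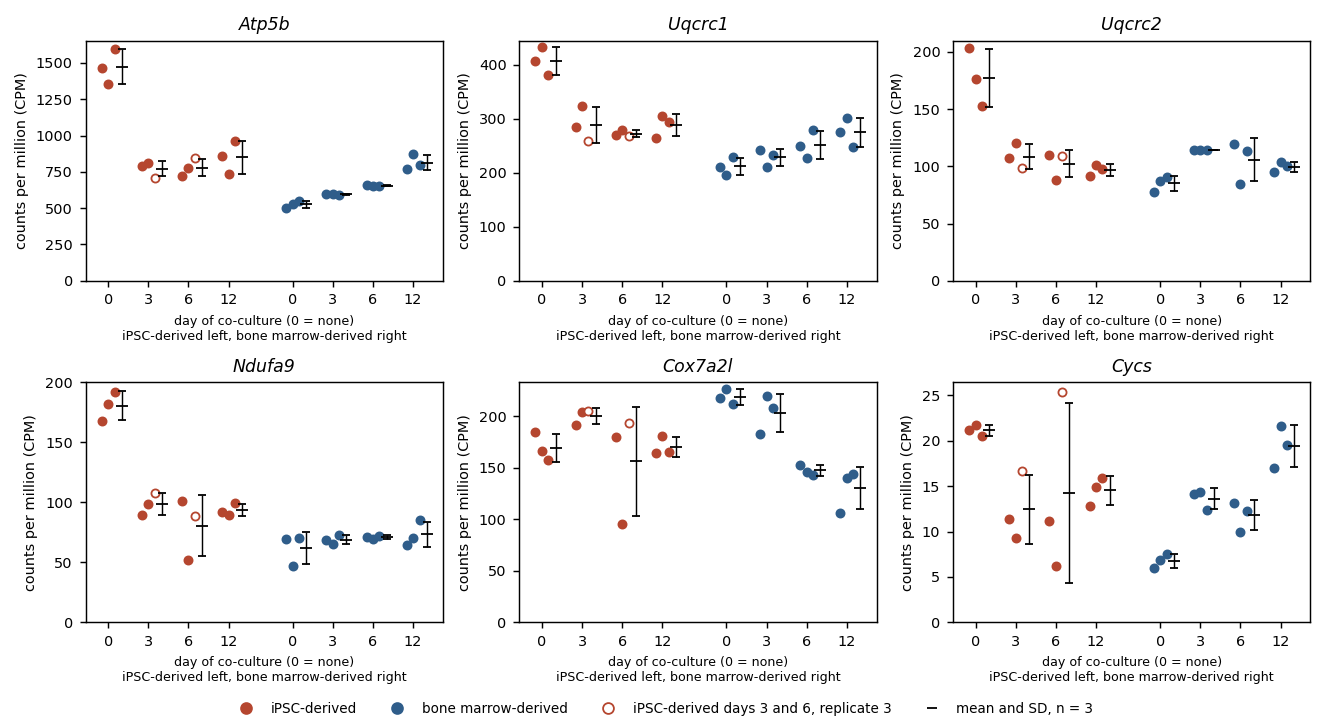
CPM of 6 nuclear members in every library by group (open circles are the libraries that stood apart, bars the mean and SD, n = 3). Atp5b is highest in iPSC-derived day 0 libraries, at 1357 to 1598 CPM, and Cox7a2l lies between 107 and 144 CPM in BM-derived day 12 libraries, against 211 to 226 CPM at day 0.

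In the same iPSC-derived cells the calls among mitochondrial members were upward. Of the 11, 2 rose at day 3, 5 at day 6 and 5 at day 12, and none fell, beside 11.2%, 14.3% and 14% of all genes called higher. Their medians were 0.50, 1.07 and 0.87. Fitted without the 2 libraries that stood apart, 0 of 11 were called at day 3 (median -0.44), 5 at day 6 and 6 at day 12, with 10.3%, 13.8% and 14.4% of all genes called higher. The 2 calls at day 3, mt-Nd4 (0.78 ± 0.20) and mt-Nd5 (0.77 ± 0.21), ended without the third day 3 library, at 0.40 and 0.36. The mt-Nd5 call also ended without the first or second day 0 library.

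At days 6 and 12 the rise was seen in every library of mt-Nd4, which had 1893, 1812 and 1255 CPM at day 6 and 1128, 1325 and 1321 CPM at day 12, all above the 500 to 675 CPM of day 0. Its log2 fold change was 1.59 ± 0.20 at day 6 and 1.28 ± 0.20 at day 12 (edgeR adjusted p = 2.2e-06 and 3.2e-05). For mt-Nd5 it was 1.58 ± 0.22 and 1.07 ± 0.22, for mt-Cytb 1.07 ± 0.23 and 1.12 ± 0.23, and for mt-Nd6 2.29 ± 0.37 and 1.49 ± 0.36. The fifth gene, mt-Nd2, rose by 1.33 ± 0.38 and 1.24 ± 0.38. Its day 6 call ended without the first or second day 0 library or the third day 6 library, and its day 12 call without the first or second day 0 library or the second day 12 library, at values of 1.06 to 1.56. mt-Co1 was at 0.26 ± 0.19 and 0.29 ± 0.19, neither called. Without the 2 libraries that stood apart the day 6 values were 1.74 for mt-Nd4, 1.70 for mt-Nd5, 1.08 for mt-Cytb, 2.53 for mt-Nd6 and 1.16 for mt-Nd2, all called, and 0.39 for mt-Co1, not called. Between days 12 and 3 in iPSC-derived cells, edgeR and DESeq2 called 0 nuclear members (0 at an unadjusted p under 0.05), and 1 mitochondrial member rose, mt-Nd1 (0.92 ± 0.27), beside 8.89% of all genes called (4.07% higher, 4.82% lower). The mt-Nd1 call ended without any 1 of the 6 libraries other than the third day 3 library (0.72 to 1.34). In the fit without the 2 libraries that stood apart, 5 nuclear and 6 mitochondrial members were called higher at day 12 than at day 3, with 8.71% of all genes called (4.22% higher).

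**Figure D4:**
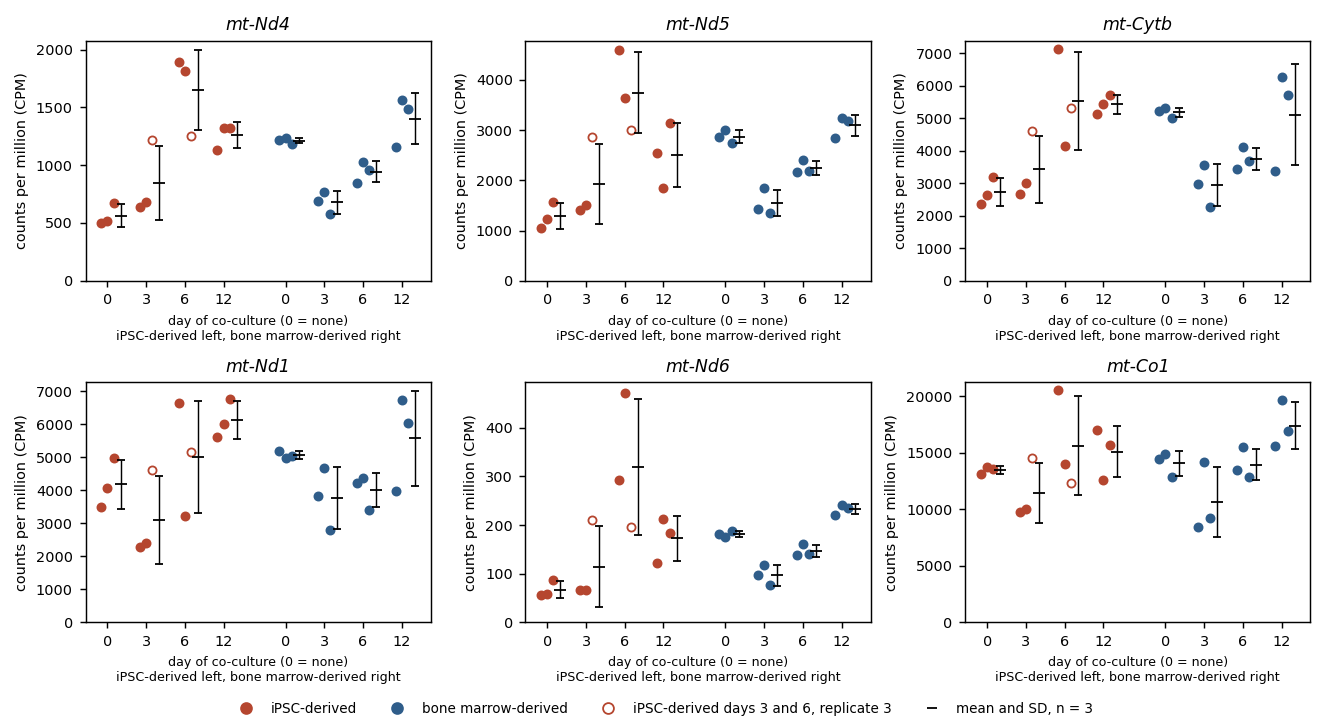
CPM of 6 mitochondrial members in every library by group (open circles are the libraries that stood apart, bars the mean and SD, n = 3). mt-Nd4 lies between 500 and 675 CPM in iPSC-derived day 0 libraries and between 1185 and 1232 CPM in BM-derived day 0 libraries, while mt-Co1 overlaps.

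BM-derived cells gave other values. At day 3, edgeR called 0 of the 87 nuclear members, with 5 at an unadjusted p under 0.05, while 3 of 11 mitochondrial members fell, beside 18.5% of all genes called (6.61% lower). DESeq2 called 1 nuclear member, and without the 2 libraries that stood apart 2 were called higher and 4 lower, with 19.4% of all genes called (12.8% higher, 6.64% lower). The mitochondrial genes were mt-Nd4, at 690, 771 and 576 CPM (-0.92 ± 0.20), mt-Nd5, at 1432, 1850 and 1356 CPM (-0.97 ± 0.22), and mt-Cytb, at 2980, 3567 and 2271 CPM (-0.90 ± 0.22). All 3 groups of values lay below the day 0 libraries given above (edgeR adjusted p = 0.0015, 0.0020 and 0.0060). mt-Co1 was at -0.49 ± 0.19 (edgeR adjusted p = 0.075).

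At day 6, 1 nuclear member (Cox7a2l) fell in BM-derived cells and edgeR and DESeq2 called 0 mitochondrial members (3 at an unadjusted p under 0.05), beside 19.6% of all genes called (6.89% lower). This count differed between settings. In the fit without the 2 iPSC-derived libraries it was 17 nuclear and 3 mitochondrial members lower and 0 higher, with 20.8% of all genes called (7.65% lower). With the BM-derived day 0 and day 6 groups fitted alone, 28 nuclear members were called lower and 1 higher, beside 33.0% of all genes called (15.2% lower and 17.8% higher). Members called in the fit without the 2 libraries included Cox4i1 (-1.13), Ndufa4 (-0.98) and Cox6b1 (-0.85), and the deviations of short members in the day 6 libraries are given above.

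At day 12, Atp5b and Cycs rose in BM-derived cells and Cox7a2l, Sdhd and Atp5s fell, beside 23.8% of all genes called (14.7% higher, 9.08% lower), and edgeR called 0 of 11 mitochondrial members (0 at an unadjusted p under 0.05, and 0 by DESeq2). Without the 2 iPSC-derived libraries the nuclear count was 12 higher and 3 lower, with 24.3% of all genes called (15% higher, 9.36% lower). Atp5b had 770, 870 and 795 CPM at day 12, against 503, 527 and 550 CPM at day 0, and its intermediate values were 595, 597 and 593 CPM at day 3 and 661, 650 and 653 CPM at day 6. The log2 fold change at day 12 was 0.45 ± 0.11 (edgeR adjusted p = 0.0028). Cycs rose to 17, 21.6 and 19.6 CPM (1.34 ± 0.35, edgeR adjusted p = 0.0064).

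Cox7a2l (chr17:83501919-83514333) encodes a factor that joins complexes III and IV into supercomplexes. In BM-derived cells it had 218, 226 and 211 CPM at day 0, 183, 219 and 208 CPM at day 3, 153, 146 and 143 CPM at day 6 and 107, 140 and 144 CPM at day 12. The day 6 and day 12 libraries all lay below the day 0 and day 3 libraries. The log2 fold change was -0.70 ± 0.18 at day 6 and -0.92 ± 0.18 at day 12 (edgeR adjusted p = 0.0069 and 0.00046). Sdhd fell by 0.49 on the log2 scale at day 12 (SE 0.14), a call that ended without the first day 0 library. Atp5s fell by 1.08 (SE 0.31), which ended without the third day 0 library (-0.97).

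Between days 12 and 3 in BM-derived cells, 4 mitochondrial members rose and 1 nuclear member rose and 1 fell, beside 8.45% of all genes called (4.20% higher, 4.25% lower). mt-Nd4 rose by 0.96 ± 0.20 (edgeR adjusted p = 0.0022), and its 1156, 1568 and 1485 CPM at day 12 spanned the 1185 to 1232 CPM of day 0. mt-Nd5 (0.91 ± 0.21) was not called without the third day 3 library, and mt-Nd6 (1.17 ± 0.36) lost its call when any 1 of the 6 was left out. mt-Co1 (0.62 ± 0.19) lost its call without the first or the third day 3 library or the second or the third day 12 library (0.49 to 0.87). The rise of Atp5b (0.36 ± 0.11) ended without any 1 of these libraries but the first of day 12, and the fall of Cox7a2l (-0.74 ± 0.18) ended without that one (-0.61). Leaving out the 2 iPSC-derived libraries that stood apart, 24 nuclear members were called higher and 1 lower, with 10.3% of all genes called (4.92% higher, 5.42% lower). These included Ndufa4 (1.05), Cox6a1 (1.16) and Ndufa2 (1.13), and the deviations of short members given above were higher in every day 12 library than in any day 3 library.

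Later days gave other counts between the sources. At day 3, 6 nuclear members were higher in iPSC-derived cells and 0 mitochondrial members were called by edgeR or DESeq2 (2 at an unadjusted p under 0.05), beside 17.9% of all genes called (8.94% higher, 8.92% lower). They were Atp5b (0.57 ± 0.11), Atp5a1 (0.52 ± 0.10), Uqcrc1 (0.53 ± 0.12), Ndufa9 (0.72 ± 0.19), Ndufa10 (0.48 ± 0.15) and Ndufs8 (0.88 ± 0.27). Without the 2 libraries that stood apart 5 were called higher, with 16.8% of all genes called (8.36% higher). They were Atp5b (0.61), Atp5a1 (0.56), Uqcrc1 (0.59), Ndufa9 (0.63) and Sdha (0.46). Ndufs8, at 0.52, and Ndufa10, at 0.37, were then not called. The call of Ndufs8 also ended without the third BM-derived library. With no scaling factors, which puts the median of all genes at -0.22, Ndufa9 (0.52), Uqcrc1 (0.33) and Ndufs8 (0.69) were not called. Over mitochondrial members the median was 0.43 with all libraries, and 10 of 11 were above 0. Without the 2 libraries only mt-Nd2 was called, as lower (-0.89). In that setting mt-Nd1 (-0.51) and mt-Nd6 (-0.37) were below 0 and mt-Nd4 (0.14) and mt-Cytb (0.14) above it.

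At day 6 the count was 30 nuclear and 4 mitochondrial members higher in iPSC-derived cells and 0 lower, beside 13.2% of all genes called (6.99% higher, 6.23% lower). Of the 20 members under 800 bases 11 were called, and of the 44 of 1500 bases or more 10. The nuclear count was 0 without the third iPSC-derived day 6 library alone and 7 without that and the third day 3 library, with 10.9% of all genes called (5.68% higher). It was 4, 9 or 10 when a BM-derived day 6 library was left out (the third, second and first in that order), and 51 without the second iPSC-derived library. The 7 called both with all 24 libraries and without those 2 were Ndufa4, Atp5mpl, Cox6b1, Cox4i1, Ndufb7, Ndufa13 and Ndufa7. Ndufa4, a subunit first assigned to complex I and later to complex IV, had 30.1, 27.2 and 135 CPM in iPSC-derived cells, against 17.1, 15.9 and 11.5 CPM in BM-derived cells, a difference of 2.23 ± 0.51 with all libraries and 1.04 without the 2. Its call, like those of Cox6b1 and Atp5mpl, ended without the third iPSC-derived day 6 library alone.

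**Figure D5:**
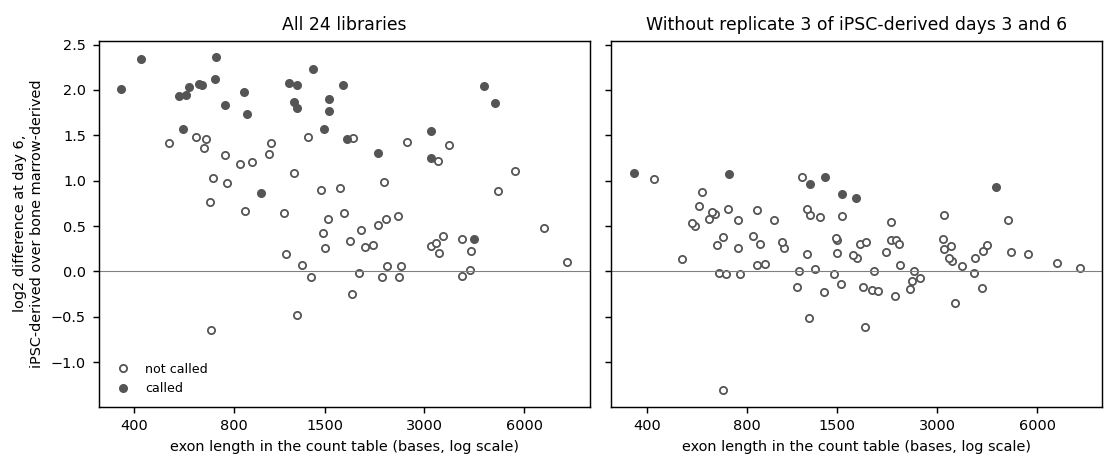
Log2 difference of each nuclear member between iPSC-derived and BM-derived cells at day 6 (vertical axis) by exon length in bases (horizontal, log scale), with all 24 libraries (left) and without the 2 that stood apart (right), filled where called. With all libraries the median is 1.71 for members under 800 bases and 0.50 for those of 1500 bases or more, and without the 2 libraries 0.55 and 0.17.

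Of the mitochondrial members at day 6, mt-Nd4 had 1893, 1812 and 1255 CPM in iPSC-derived cells, against 843, 1026 and 961 CPM in BM-derived cells (0.91 ± 0.20, edgeR adjusted p = 0.0022), which kept its call whichever 1 library was left out. mt-Nd5 (0.84 ± 0.21) was not called without the first iPSC-derived library (0.70). mt-Nd6 (1.22 ± 0.36) lost its call without the second iPSC-derived library or any BM-derived one, and mt-Cytb (0.67 ± 0.22) without any library of the 6 but the second iPSC-derived one (0.48 to 0.85). In the fit without the 2 that stood apart, mt-Nd4 (1.07), mt-Nd5 (0.98) and mt-Nd6 (1.47) were called and mt-Cytb (0.69) was not. At day 12, 1 nuclear member, Cox7a2l, differed, with 164, 181 and 166 CPM in iPSC-derived cells, against 107, 140 and 144 CPM in BM-derived cells (0.62 ± 0.18, edgeR adjusted p = 0.028), beside 9.77% of all genes called (5.03% higher, 4.74% lower). That call ended without the first or second iPSC-derived library or the first BM-derived library (0.49 to 0.71), and with no scaling factors (0.39). With the fit made without the 2 libraries that stood apart, 4 nuclear members were called higher and 6 lower at day 12, with 11.4% of all genes called (6.22% higher, 5.15% lower). The medians at day 12 were -0.23 over nuclear and 0.07 over mitochondrial members, and the mitochondrial median was -0.16 with no scaling factors, which move the median of all genes by -0.25.

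Whether the changes themselves differed between the sources was tested as an interaction, the change from day 0 in iPSC-derived cells minus that in BM-derived cells. At day 3, 4 nuclear members had a lower and 4 mitochondrial members a higher interaction, beside 20.5% of all genes called (9.03% higher, 11.5% lower). At day 6, 8 nuclear members were lower and 1 higher and 5 mitochondrial members higher, beside 19.7% (8.62% higher), and at day 12, 6 nuclear members were lower and 1 higher and 3 mitochondrial members higher, beside 20.1% (9.07% higher). With all 24 libraries the median interaction over nuclear members was 0.14, 0.73 and -0.64 at days 3, 6 and 12, with 52, 62 and 7 of the 87 above 0. At days 3 and 6 the median and most calls therefore differ in sign. At an unadjusted p under 0.05, 22 nuclear members were higher and 12 lower at day 6. Without the 2 libraries that stood apart, the lower nuclear calls at days 3 and 12 numbered 13 and 19, with 19.8% and 21.6% of all genes called (11.7% lower on each day). At day 6 they numbered 11, with 20.2% of all genes called (11.5% lower). The day 6 nuclear count was 5 without the first iPSC-derived day 0, second BM-derived day 0 or the third BM-derived day 6 library, 18 without the first iPSC-derived day 6 library and 19 without the second. The interaction for Atp5b was -0.84 ± 0.15 at day 3, -1.05 ± 0.15 at day 6 and -1.12 ± 0.15 at day 12 (edgeR adjusted p = 0.00022, 1.6e-05 and 6.5e-06), and without the 2 libraries -0.83, -1.15 and -1.12, each called. For mt-Nd4 it was 1.69 ± 0.28, 2.09 ± 0.28 and 1.25 ± 0.28 (edgeR adjusted p = 7.1e-05, 6.4e-06 and 0.0020), and without the 2 libraries 1.29, 2.22 and 1.25. Uqcrc2 gave -0.85 ± 0.21, -0.92 ± 0.21 and -0.80 ± 0.21, and without the 2 libraries -0.83, -1.01 and -0.79. The 1 nuclear member with a higher interaction at day 12 was Cox7a2l (1.06 ± 0.25, edgeR adjusted p = 0.0037). The 2 day 0 groups enter every one of these contrasts, so the values at the different days are not independent.

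Over the 15 contrasts, 35 of the 87 nuclear members and 4 of the 11 mitochondrial members, those with few reads, were called in none, beside 38.2% of all genes tested. Atp5b was called in 11, mt-Nd4 and mt-Nd5 in 10 each and mt-Cytb in 8. Of the isoforms known from particular tissues, Cox4i2, Cox7a1 and Ndufa4l2 averaged 0.498, 0.352 and 0.0734 CPM over all libraries, while Cox6a2, with up to 14.8 CPM in an iPSC-derived day 0 library, was called in 7 contrasts. Sdha stayed between 297 and 474 CPM in every library and was not called in any contrast with all 24 libraries. Without the 2 that stood apart it was called higher in iPSC-derived than in BM-derived cells at day 3 (0.46). Among the 3 genes for the same c-ring subunit of complex V, Atp5g3 was higher per length, at 19.3 CPM per kb, than Atp5g2 at 5.25 and Atp5g1 at 3.20. Without division by length, Atp5g3 averaged 42.1, Atp5g1 15.7 and Atp5g2 8.79 CPM, so the order of Atp5g1 and Atp5g2 depended on it. Of the 51-base stretches, 0% in Atp5g3, 10.9% in Atp5g1 and 38% in Atp5g2 occur in other annotated genes, so part of their reads may not be counted.

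Other mitochondrial gene lists, chosen with earlier results known, were counted in the same contrasts. Of 26 genes of the tricarboxylic acid cycle and pyruvate dehydrogenase, 11 fell and 2 rose in iPSC-derived cells at day 3, 15 fell and 2 rose at day 6, and 13 fell and 2 rose at day 12. Of all genes tested, 8.14%, 11% and 10.7% fell and 11.2%, 14.3% and 14% rose in these comparisons. The median over the list was -0.38, -0.63 and -0.49 at these days, beside 0.04 over all genes at day 3. Pdhb, of the pyruvate dehydrogenase core, changed by -1.07 ± 0.14 at day 3, -1.16 ± 0.14 at day 6 and -1.20 ± 0.14 at day 12. Pdk2, a kinase that switches that enzyme off, rose, by 2.02 ± 0.34, 1.69 ± 0.34 and 1.09 ± 0.34. In BM-derived cells 4, 4 and 5 of the 26 fell and 2, 1 and 2 rose at days 3, 6 and 12, beside 6.61%, 6.89% and 9.08% of all genes lower and 11.9%, 12.7% and 14.7% higher, with Fh1 (fumarase) at -1.02 ± 0.15 and Idh3a, of isocitrate dehydrogenase, at 1.74 ± 0.18 at day 12. At day 0, 19 of the 26 were higher and 3 lower in iPSC-derived than in BM-derived cells, beside 18.9% and 17.1% of all genes, among them Mdh2 at 1.49 ± 0.16.

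The shares of all genes just given are the background of the next counts as well. Of 77 mitochondrial ribosomal protein genes, 11, 20 and 13 fell and 0, 1 and 0 rose in iPSC-derived cells at days 3, 6 and 12, and 2, 5 and 2 fell and 0, 0 and 3 rose in BM-derived cells. At day 0, 25 were higher and 1 lower in iPSC-derived cells. Of 28 genes for mitochondrial DNA expression and maintenance, 3, 7 and 3 fell in iPSC-derived cells and none rose, which at days 3 and 12 is near the share of all genes that fell. Among them was Tfam, which packages mitochondrial DNA, at -0.79 ± 0.24 at day 12. Of 27 carriers, antioxidants and uncoupling genes, 9, 13 and 9 fell and 1, 1 and 1 rose, with the import chaperone Hspa9 at -2.15 ± 0.17 at day 6 and Ucp2 at 0.56 ± 0.18. Assembly factors outside the naming rule, 37 genes, gave 3, 5 and 2 falls and 1, 0 and 0 rises, near or below the share of all genes that fell, with Cox15, needed to make haem A for complex IV, at -0.90 ± 0.17 at day 12. Fitted without the 2 libraries that stood apart, the falls in iPSC-derived cells numbered 8, 14 and 14 for the tricarboxylic acid cycle list and 21, 36 and 18 for the ribosomal list. For the mitochondrial DNA list they numbered 5, 6 and 3, for the carrier list 8, 14 and 10 and for the assembly factors 1, 5 and 2. In that setting Pdhb was at -1.08 and -1.19 and Pdk2 at 2.00 and 1.81 at days 3 and 6, and Hspa9 at -2.21 and Ucp2 at 0.62 at day 6, each called.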

How the data were processed

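Total RNA (2 ng) of 24 mouse macrophage libraries was made into cDNA by SMART-seq v2 and sequenced as paired reads of 51 bases, per the labels' protocols. The authors aligned reads with STAR to mm10/GRCm38, per the submitters' processing notes, and deposited whole-number counts per gene from featureCounts (GENCODE M9 exons, no strand or multi-mapping option), per the file headers. Gene symbols matched 47224 of 47643 IDs; the 419 others held 0.0635% of counts. Members and lists were chosen with earlier results of these data known. Counts were tested with edgeR 4.0.16 (quasi-likelihood, robust, TMM scaling) in 1 fit of 8 group means and 15 contrasts, after filterByExpr (minimum count 10, total 15) left 15000 genes; calls are Benjamini-Hochberg adjusted p below 0.05. SE is the log2 fold change divided by the square root of F. CPM are counts scaled to a library total of 1000000, without TMM. Named genes are the mitochondrial members, the 5 called nuclear members of lowest adjusted p in each direction and contrast, fixed subunits and isoform pairs, and the 2 called genes of lowest adjusted p in each direction from other lists; further members called in few contrasts or in 1 setting were named after their values were seen. Alternatives were DESeq2 1.42.0, other scalings, no filter, a replicate block, fitting only the groups compared, and leaving out libraries. The labels call replicates independent without saying what was independent, so p-values measure the spread between these samples. The scripts were tested on simulated data.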

Additional observations from a re-analysis of the deposited data

Results flagged for a closer look

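The genes below were picked out because their change from day 0 differed between the sources by the interaction test (edgeR adjusted p below 0.05). Of all genes tested, 20.5%, 19.7% and 20.1% were called by that test at days 3, 6 and 12. Values are log2, with the BM-derived change taken from the iPSC-derived one. Both day 0 groups enter each value, so those of different days are not independent.

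At day 3 the mitochondrial members gave 1.69 for mt-Nd4, 1.74 for mt-Nd5, 1.95 for mt-Nd6 and 1.42 for mt-Cytb. The nuclear members gave -0.835 for Atp5b, -0.855 for Uqcrc2, -5.88 for Cox6a2 and -1.49 for Cycs. The call of Cycs ended without any 1 of 7 of the 12 libraries.

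At day 6 the mitochondrial members gave 1.83 for mt-Nd2, 2.09 for mt-Nd4, 2.07 for mt-Nd5, 2.74 for mt-Nd6 and 1.67 for mt-Cytb. Lower nuclear members were Atp5b at -1.05, Ndufa9 at -1.17, Ndufa10 at -0.623, Ndufs1 at -0.747, Ndufv1 at -0.653, Uqcrc1 at -0.642, Uqcrc2 at -0.924 and Cox6a2 at -5.0. Atp5j2 was higher at 1.85, and at 0.88 and not called without the 2 libraries that stood apart. Leaving out 1 library ended the call of Atp5j2 or mt-Nd2 for 5 libraries, of Ndufs1 for 8 and of Ndufv1 for 9.

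At day 12 the mitochondrial members gave 1.25 for mt-Nd4, 1.14 for mt-Nd5 and 1.31 for mt-Cytb. Nuclear members gave -1.12 for Atp5b, -0.886 for Ndufa9, -0.57 for Uqcrc1, -0.796 for Uqcrc2, -4.47 for Cox6a2, -1.75 for Cycs and 1.06 for Cox7a2l. The calls of Ndufa9 (second BM-derived day 0 or the third day 12 library) and Uqcrc1 (second BM-derived day 0 or second day 12 library) ended without 1 library. Without both libraries that stood apart, all the calls listed here were made but that of Atp5j2.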

How the results depend on the processing

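Values are numbers of members called, nuclear unless mitochondrial is written. Comparisons with day 0 are named by source and day, and the other counts stayed within 1.5 times. With no scaling factors they were 13 (mitochondrial 1) for iPSC day 3, 2 for BM day 3, 2 for BM day 6, 2 between sources at day 3, 0 between sources at day 12, and 10 and 15 for the interactions at days 3 and 12. The median of all genes then stood at -0.14 for iPSC day 3, 0.12, 0.17 and 0.22 for BM days 3, 6 and 12, -0.22 and -0.25 between sources at days 3 and 12, and -0.28, -0.13 and -0.31 for the interactions, and the nuclear median of the day 3 interaction was -0.14 in place of 0.14. With no filter on low counts the counts were mitochondrial 4 for iPSC day 3, 29 for iPSC day 6, mitochondrial 4 for iPSC day 12 against 3, 2 (mitochondrial 6) for BM day 3, 10 (mitochondrial 4) for BM day 6 and 18 (mitochondrial 7) for BM day 12 against 3. Between sources they were 22 (mitochondrial 3) at day 3 and 2 at day 12, and for the interactions 7, 31 and 13 (mitochondrial 6 at day 12). With only the groups compared they were mitochondrial 0 for iPSC day 3, 6 for iPSC day 6, mitochondrial 0 for iPSC day 12 against 3, 12 (mitochondrial 7) for BM day 3, 29 (mitochondrial 6) for BM day 6, 18 (mitochondrial 1) for BM day 12 and 37 for BM day 12 against 3. Between sources they were 26, 1 and 2 at days 0, 6 and 12, and for the interactions 9 at day 3 and 19 (mitochondrial 5) at day 12. Of all genes, that setting called 15.4% and 15.7% for iPSC days 3 and 6, 2.64% for iPSC day 12 against 3, 31.4%, 33.0% and 31.5% for BM days 3, 6 and 12, and 21.2% for BM day 12 against 3. Between sources it called 40.1%, 12.8% and 7.91% of all genes at days 0, 6 and 12, and 23.7% and 20.1% for the interactions. Over the 15 comparisons all genes were called at 8.5% to 36.0% with no scaling factors, 6.19% to 19.6% with no filter and 12.7% to 38.9% by DESeq2. DESeq2 gave 1 for BM day 3, 10 and 3 between sources at days 3 and 12, and 17 (8 higher, 9 lower) for the day 6 interaction.

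Without the 2 libraries that stood apart, chosen after seeing the data, the counts were 31 (mitochondrial 0), 32 and 13 for iPSC days 3, 6 and 12, 5 (mitochondrial 6) for iPSC day 12 against 3, 6, 17 (mitochondrial 3) and 15 for BM days 3, 6 and 12, and 25 for BM day 12 against 3. Between sources they were 28, 7 and 10 at days 0, 6 and 12 (mitochondrial 1 at day 3), and for the interactions 13 and 20 (mitochondrial 5) at days 3 and 12. Same-numbered replicates deviated together in 6 of 18 correlations above 0.1 in iPSC-derived cells (-0.107 to 0.245) and 0 of 18 in BM-derived cells, and 10 and 9 of 18 matched their own number best. Not every pair passed 0.1 and the labels tie no number to a batch by name, so the main fit did not pair the libraries. In the count headers, however, iPSC-derived library names run in order within a replicate number over the days, and BM-derived names within a day. Pairing of the iPSC-derived libraries is therefore possible, and the replicate block below gives counts with it. Between the iPSC-derived co-culture days alone, 6 of 9 passed 0.1 and 7 of 9 matched their own number best, as a hint from the data, and both libraries that stood apart are numbered 3. The replicate block gave mitochondrial 5 for BM day 3, 5 (mitochondrial 1) for BM day 6 and 2 between sources at day 12, and ended the day 6 interaction calls of Ndufs1 and Ndufv1.

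Leaving out 1 library gave, for iPSC days 3, 6 and 12, 3 to 8, 11 to 22 and 6 to 8 nuclear and 0 to 3, 4 to 5 and 4 to 5 mitochondrial calls, and for iPSC day 12 against 3, 0 to 1 and 0 to 6. BM days 3, 6 and 12 gave 0 to 0, 1 to 1 and 4 to 5 nuclear and 3 to 4, 0 to 0 and 0 to 0 mitochondrial calls, and BM day 12 against 3 gave 1 to 1 and 1 to 4. Between sources at days 0, 3, 6 and 12 the nuclear ranges were 11 to 13, 4 to 9, 0 to 51 and 0 to 1, and the mitochondrial 4 to 4, 0 to 2, 2 to 4 and 0 to 0. The interactions gave 3 to 5, 5 to 19 and 5 to 8 nuclear and 4 to 4, 4 to 5 and 3 to 3 mitochondrial calls. Of 121 values of named genes called with all 24 libraries, 0 reversed in any of these settings. They were chosen as called in the same libraries, so this is no separate support. Leaving out 1 library kept the call in 757 cases and ended it in 155. Values not called with all libraries were left out of this count. Among those, Cox4i1 at iPSC day 3 changed sign without the 2 libraries that stood apart.

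With mitochondrial rows left out of the total, nuclear members held 0.856% of counts in iPSC-derived day 0 cells and 0.553% and 0.515% in BM-derived day 0 and day 6 cells. With mt-Co1 left out, the difference in log2 ratio was 0.50 for iPSC day 3, 1.34 for iPSC day 12, 0.84 for iPSC day 12 against 3, -0.30 for BM day 6 and -1.37 between sources at day 0, where it was -0.91 with mt-Cytb left out. The cause of these differences was not tested. With 3 libraries a group, small differences in low genes such as Cycs and Cox6a2 are the least precise.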

Other observations

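Of 15 regulators of mitochondrial biogenesis that were tested, 5 were higher and 4 lower in iPSC-derived than in BM-derived cells at day 0, beside 18.9% of all genes higher and 17.1% lower. Myc, a growth regulator, differed by 6.41 ± 0.56 and Esrra, a nuclear receptor that drives respiratory genes, by -1.06 ± 0.29 (log2 ± SE, edgeR adjusted p = 2.9e-09 and 0.0053). In iPSC-derived cells at day 12 against day 0, Myc was at -1.68 ± 0.41, Esrra at 0.94 ± 0.29 and Epas1, a hypoxia factor, at 1.52 ± 0.34. In BM-derived cells Myc was at 4.81 ± 0.54 at day 12. Hif1a, the related hypoxia factor, was at 2.35 ± 0.21 at day 3 and 1.49 ± 0.20 at day 6. The interaction for Myc at day 12 was -6.48 ± 0.68 (edgeR adjusted p = 2.7e-07).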
